A study of Mus musculus with 4 samples.

Results

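Goblet cells, the mucus-secreting cells of the colon lining, were compared between the cells labelled Ctrl_DSS and the cells labelled TG_WT. The comparison held 388 goblet cells of the 13158 barcodes that passed filtering, 94 and 126 labelled Ctrl_DSS and 124 and 44 labelled TG_WT in batches 1 and 2. Over all tags, and with cells that carried no single tag, 1452 barcodes met the goblet gate. A barcode entered with at least 1000 gene UMIs, no fewer than 250 genes and no more than 25% mitochondrial UMIs. A UMI, or unique molecular identifier, marks 1 captured RNA molecule. The gate asked for at least 1 UMI of Epcam and Krt8 together, at least 5 UMIs of Muc2, at most 2 of Chga and Chgb together, none of Ptprc, and less than 0.5% of UMIs from S100a8 and S100a9. A cell took a tag when that hashtag reached 2.5 times its median over the batch's filtered barcodes and the other 3 did not reach that multiple of theirs. The members were thus chosen by measured values, the UMIs of the gate genes and the hashtag counts, and those values are given without tests.

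The study profiled adult C57/BL6J mouse colon by 3' droplet sequencing in 2 batches. Each batch mixed 4 tagged conditions in 1 gene expression library: wild type and JUP-KO mice, each either untreated or given DSS (dextran sulfate sodium, which damages the colon epithelium and causes colitis). JUP-KO names a knockout of Jup, whose product plakoglobin is a linker protein of desmosomes and adherens junctions. The knockout allele, the cells in which it acts, the age of the mice, and the dose and time of DSS are not given in the sources used here. Taken at its name, Ctrl_DSS would mark DSS in wild type, and TG_WT would mark JUP-KO without DSS. Taken in the order of the antibody numbers, the meanings swap, and Ctrl_DSS would mark JUP-KO without DSS. Ctrl_WT (wild type, untreated) and TG_DSS (JUP-KO with DSS) keep their meaning either way. Under both readings the comparison changes genotype and DSS at once, so their effects cannot be told apart, and the groups are given by tag name only. Whether the batches came from separate mice is not given, so p-values measure the spread between these sums of cells, which may be technical.

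Goblet cells fold and glycosylate the gel-forming mucin Muc2, store it in granules and release it with helper proteins that crosslink the gel, bind bacteria or support repair. Younger goblet cells lie in the crypt, and older ones migrate toward the surface epithelium and change their secreted products on the way. In an injured colon the epithelium also induces interferon-response genes, antimicrobial proteins and repair genes.

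The sums of the 4 groups of goblet cells held 2130455 and 3041937 UMIs for Ctrl_DSS and 2770325 and 1091625 for TG_WT, and median depth per cell ran from 20729 to 25497 UMIs. Muc2, 1 of the 9 goblet markers, was used by the gate. The other 8 summed to between 59402 and 162313 CPM in the goblet sums and to between 412 and 644 CPM in other epithelial barcodes of the same tags. The summed level of all 9 was 72694 and 91515 CPM (UMIs of the gene per 1000000 gene UMIs of the sum) in batches 1 and 2 under Ctrl_DSS, and 85857 and 179381 CPM under TG_WT. Neutrophil markers summed to 90.6 and 75.9 CPM under Ctrl_DSS and to 67.5 and 439 CPM under TG_WT, highest in batch 2 of TG_WT. S100a8 and S100a9 made up most of that last sum, at 98.9 and 245 CPM. Of the 9 neutrophil markers, 6 and 8 were detected under Ctrl_DSS and 8 and 8 under TG_WT, and Mmp9 was at 0 in batch 2 of both tags. Colonocyte markers, all 10 detected in each group, summed to 4552 and 2115 CPM under Ctrl_DSS and to 8636 and 1646 CPM under TG_WT. Enteroendocrine markers were at 502 and 616 CPM in batch 1 and at 4.93 and 5.50 CPM in batch 2, Ctrl_DSS first. Fibroblast markers reached 188 CPM in batch 1 of TG_WT and at most 13.1 CPM in the other groups. No goblet barcode was shared between the batches, and no doublet caller was run beyond the tag rule.

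Goblet cells were a larger part of the epithelial barcodes under Ctrl_DSS than under TG_WT in both batches. They made up 48.2% (94 of 195, exact 95% interval 41.0 to 55.5%) and 49.2% (126 of 256, 42.9 to 55.5%) of epithelial barcodes labelled Ctrl_DSS. Under TG_WT they were 30.2% (124 of 411, 25.8 to 34.9%) and 17.3% (44 of 255, 12.8 to 22.5%). The intervals cover counting error only and do not overlap between the tags in either batch. In cells with no single tag the share was 15.95% and 17.2%, below both tags in batch 1 and near TG_WT in batch 2. With 2 batches against 2, an exact permutation test cannot go below p = 0.33, so none was used. The tags also separated unequally: the median goblet cell's own hashtag stood at 3.23 and 3.56 times the batch median under Ctrl_DSS and at 5.14 and 7.76 times under TG_WT. Of all goblet cells, 621 (71.1%) in batch 1 and 376 (65.1%) in batch 2 passed no tag threshold, and 20 and 14 passed more than 1.

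**Figure D1:**
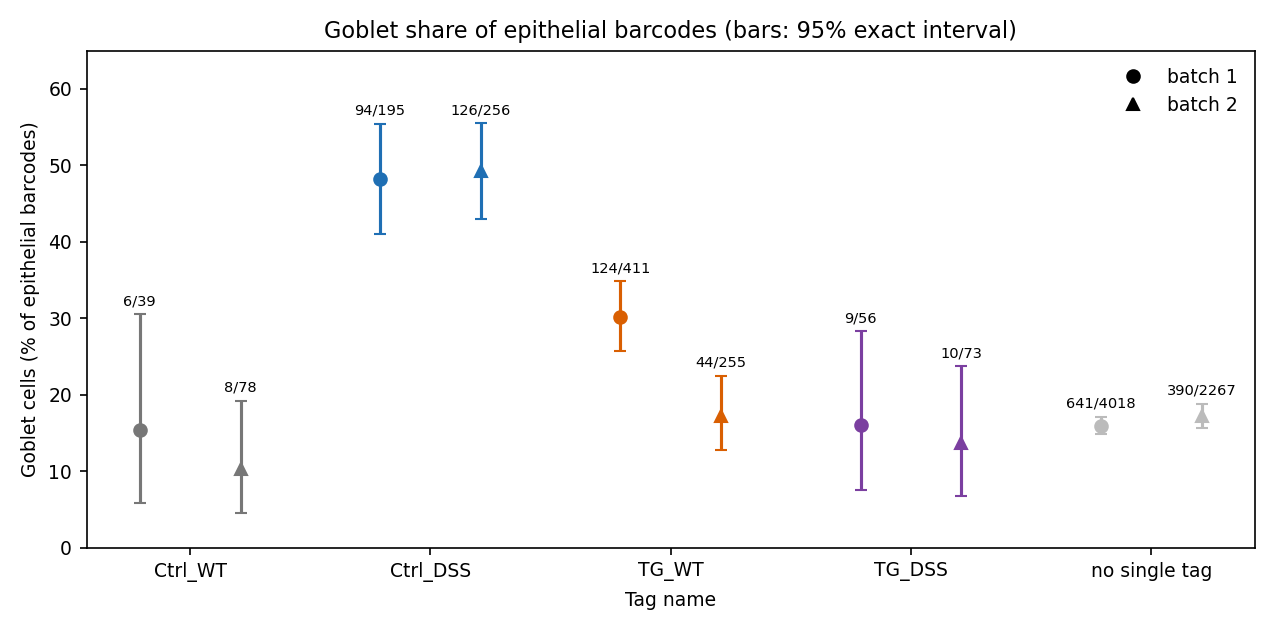
Goblet cells as a percentage of epithelial barcodes (vertical axis, linear from 0) for each tag name, with circles for batch 1 and triangles for batch 2; bars are exact 95% intervals and the numbers are goblet over epithelial barcodes. Both Ctrl_DSS points lie at 48.2% and 49.2%, above the TG_WT points at 30.2% and 17.3%.

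Jup itself (chr11:100368958-100397763, - strand, mm10) was lower in goblet cells labelled Ctrl_DSS. Its level was 15.02 and 9.53 CPM under Ctrl_DSS and 57.03 and 61.4 CPM under TG_WT in batches 1 and 2. Both Ctrl_DSS values lay below both TG_WT values (log2 fold change -2.43, SE 0.30, edgeR adjusted p = 0.000119; log2 scale, Ctrl_DSS minus TG_WT throughout). At least 1 Jup UMI was found in 21.3% and 18.3% of the Ctrl_DSS cells and in 63.7% and 56.8% of the TG_WT cells. The few goblet cells of the other tags had 59.99 and 18.7 CPM under Ctrl_WT (6 and 8 cells) and 12.8 and 26.96 CPM under TG_DSS (9 and 10 cells). Cells with no single tag, a mixture, had 21.7 and 18.7 CPM. Reads at the 3' end check a deletion only where they lie in the deleted stretch, and that stretch is not given here, so these levels do not settle how the tags should be read.

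Across all genes, 225 of 11292 passed an adjusted p of 0.05 in edgeR's quasi-likelihood test with Benjamini-Hochberg adjustment (1.99%). Of these, 37 (0.328%) were higher and 188 (1.66%) were lower in goblet cells labelled Ctrl_DSS. The counts of called list members given below are to be read beside these shares. Where the groups of a called gene are said not to overlap, the call came from these same sums, so this is no separate support. The share of all genes whose groups do not overlap was not counted. The median log2 fold change of all genes was 0.0035. The fit took batch as a block and rested on 5 sums of at least 10 cells (the 4 compared and TG_DSS in batch 2), with 1 residual degree of freedom and a spread borrowed across genes. The TG_DSS sum, alone under its tag, is fitted exactly, so the residual comes from the 4 compared sums. Without the block edgeR called 0 genes, with 724 at an unadjusted p under 0.05, and DESeq2 with the block called 22. With the spread shared with other epithelial sums, 5 genes were called: Clca1, Retnlb, Gsdmc4, Cdkn2b and Slfn2, all lower under Ctrl_DSS, the last named because of this count.

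**Figure D2:**
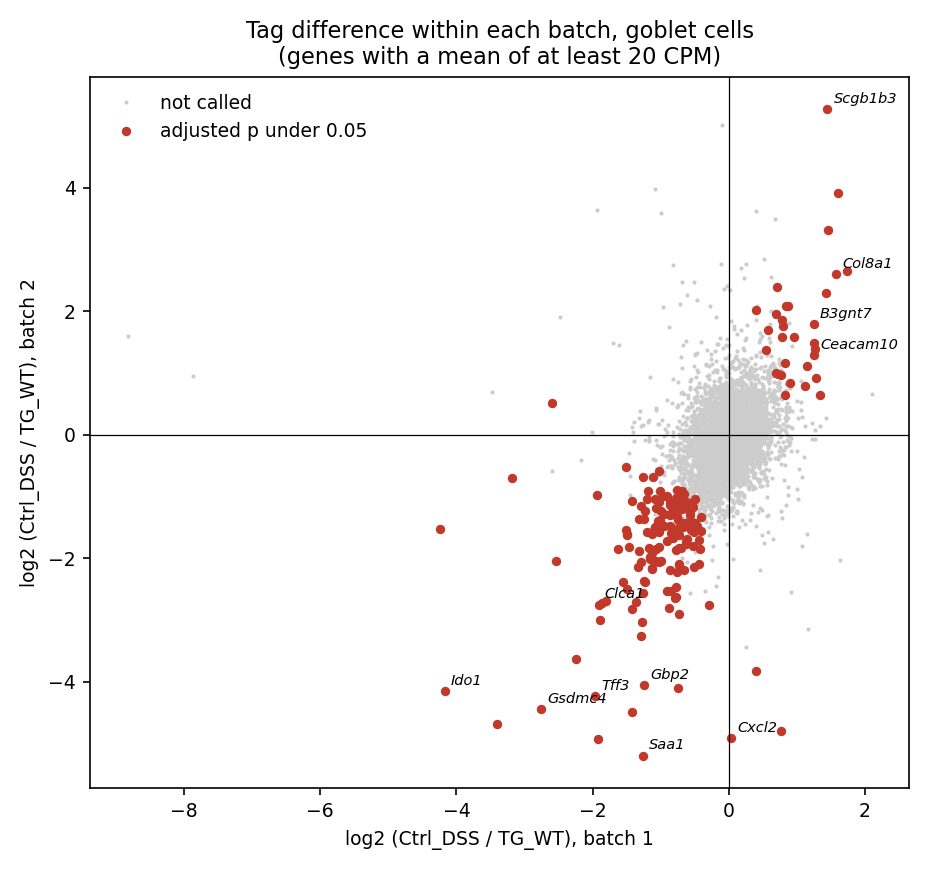
Log2 ratio of Ctrl_DSS to TG_WT goblet sums in batch 1 (horizontal axis) and batch 2 (vertical axis) for the 5574 genes with a mean of at least 20 CPM; each point is a gene and red points passed an adjusted p of 0.05. Of 187 red points, 152 were lower under Ctrl_DSS in both batches, 31 were higher in both, and 4 had opposite signs. The calls were made from these same sums, so agreement between the axes is no separate support.

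Clca1, Tff3, Fcgbp, Zg16 and Tgm3, secreted with Muc2 or acting on it, were lower under Ctrl_DSS, while the mucin's folding partner Agr2 was not called. Of 10 tested secreted mucus genes, 5 fell (against 1.66% of all genes), none rose, and the list's median log2 fold change was -1.27. Clca1 (chr3:145003817-145032776, - strand), a secreted protease that processes the mucus gel, was at 789.5 and 706 CPM under Ctrl_DSS and 3015 and 3767 CPM under TG_WT (log2 fold change -2.33, SE 0.20, edgeR adjusted p = 1.34e-06). Tff3 (chr17:31125306-31129646, - strand), the trefoil peptide of epithelial repair, was at 1350.4 and 1037 CPM under Ctrl_DSS and 5345 and 15478 CPM under TG_WT (log2 fold change -3.10, SE 0.33, edgeR adjusted p = 2.35e-05). For both genes the groups did not overlap, and the gap was wider in batch 2: the within-batch log2 ratio of Tff3 was -1.96 in batch 1 and -4.23 in batch 2.

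Fcgbp (chr7:28071236-28120862, + strand), a large protein bound to Muc2 in the gel, was at 821 and 1038 CPM under Ctrl_DSS and 1973 and 4263 CPM under TG_WT (log2 fold change -1.81, SE 0.21, edgeR adjusted p = 8.30e-05). Zg16 (chr7:127050156-127087328, - strand), a lectin that aggregates bacteria in mucus, was at 20101 and 18300.2 CPM under Ctrl_DSS and 35372 and 90976 CPM under TG_WT (log2 fold change -1.72, SE 0.25, edgeR adjusted p = 0.000674). Again both Ctrl_DSS sums lay below both TG_WT sums. Tgm3, a transglutaminase that crosslinks Muc2, fell too (log2 fold change -1.82, SE 0.35, edgeR adjusted p = 0.00767), but its 21.99 CPM in batch 2 of TG_WT came from 1 cell. It was no longer called when each gene's highest cell was left out of each sum. Other epithelial barcodes held more Tgm3 than goblet cells, at 98.95 and 84.6 CPM under Ctrl_DSS and 262 and 138 CPM under TG_WT. Agr2, the disulfide isomerase needed to fold Muc2, was at 15546 and 22957 CPM under Ctrl_DSS and 14206 and 21522 CPM under TG_WT (log2 fold change -0.04, SE 0.12, edgeR adjusted p = 0.952). Spink4 (log2 fold change -0.06), Itln1 (0.36), Muc6 (2.23) and Reg4 (-0.82) were not called. Reg4 went in opposite directions in the batches, at 0.46 in batch 1 and -2.18 in batch 2. Muc2 was part of the gate and is given without a test: 13292 and 26102 CPM under Ctrl_DSS and 11102 and 17068 CPM under TG_WT.

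**Figure D3:**
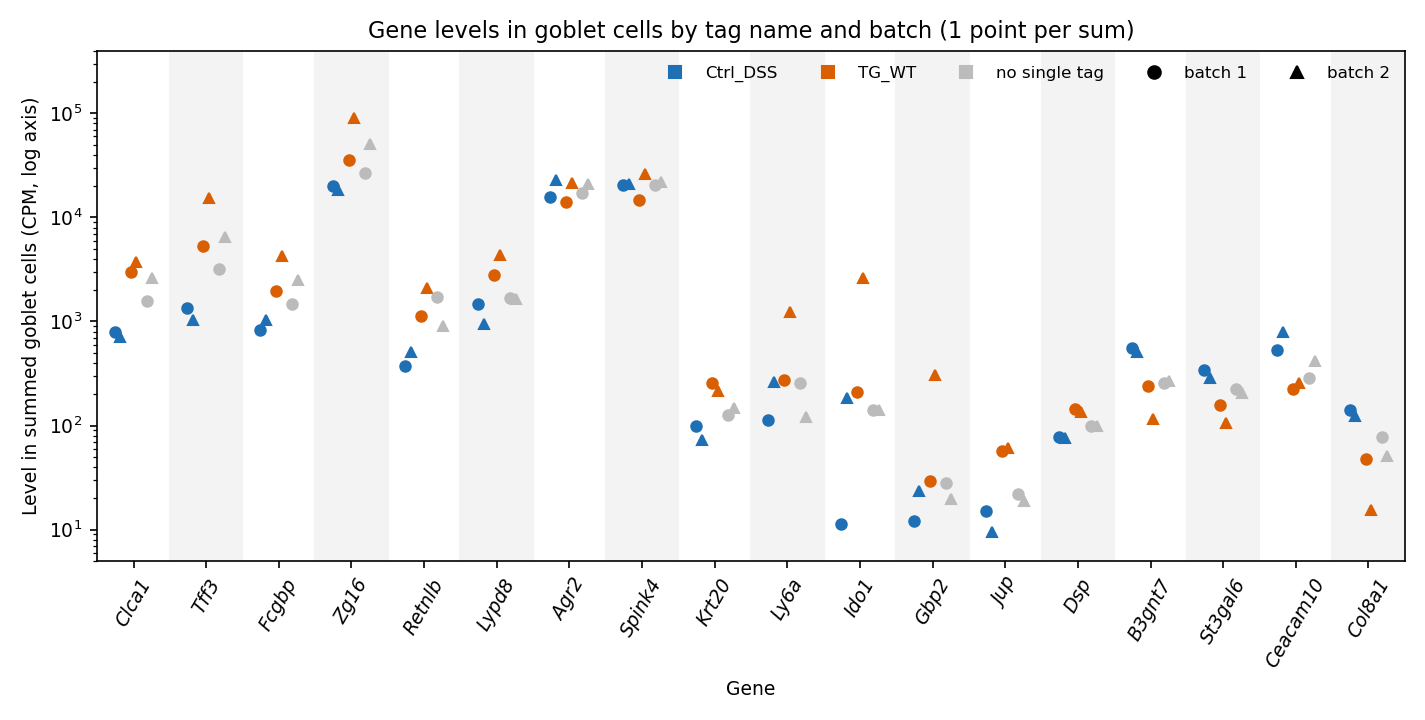
Level of 18 genes in summed goblet cells (CPM, log axis), with blue for Ctrl_DSS, orange for TG_WT and grey for cells with no single tag, circles for batch 1 and triangles for batch 2, 1 point per sum. Clca1, Tff3, Fcgbp, Zg16 and Jup are lower in both Ctrl_DSS sums, Agr2 and Spink4 overlap, and B3gnt7, St3gal6, Ceacam10 and Col8a1 are higher in both Ctrl_DSS sums.

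The share of goblet cells that carried these transcripts differed as well when each cell was thinned to 1000 UMIs. Clca1 was found in 12.8% and 14.3% of thinned Ctrl_DSS cells and in 41.1% and 52.3% of thinned TG_WT cells. Before thinning these shares were 39.4% and 23.0% against 59.7% and 68.2%. Other epithelial barcodes of the same tags, which should lack Clca1, had a UMI in 7.69% to 9.95% at median depths of 11710 to 22958 UMIs, so the unthinned goblet shares stood above that level. Fcgbp was found in 24.5% and 17.5% of thinned Ctrl_DSS cells and in 44.4% and 63.6% of thinned TG_WT cells, and in 3.85% to 11.9% of other epithelial barcodes unthinned. Reg4, a deep-crypt secretory product, was found in 17.0% and 5.56% of thinned Ctrl_DSS cells and in 10.5% and 6.82% of TG_WT cells. Unthinned, these shares were 46.8% and 20.6% against 17.7% and 18.2%, and other epithelial barcodes had a UMI of Reg4 in 0.769% to 3.14%. Mptx1, a pentraxin of deep-crypt goblet cells, was found in 39.4% and 13.5% against 34.7% and 20.5%. Unthinned, they were 60.6% and 29.4% against 53.2% and 31.8%, and other epithelial barcodes had a UMI of Mptx1 in 5.69% to 16.8%. For Mptx1 the order of the tags changed between batches with and without thinning, while for Reg4 it changed in thinned cells and Ctrl_DSS was higher in both batches in unthinned cells. Of 14 tested mature goblet genes, 6 fell and none rose (Clca1, Fcgbp, Zg16, Tff3, the chemokine Ccl9 at -1.31 and Bcas1 at -1.04), with a median of -0.71. Of 9 deep-crypt secretory genes, 2 rose (Kit, 0.85, and Wfdc2, 1.15) and 2 fell (Retnlb and Ang4).

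Of 30 tested O-glycosylation genes, which build mucin sugars, 3 rose, none fell, and the list's median was -0.07. B3gnt7 (chr1:86302832-86307305, + strand), which extends lactosamine chains, was at 557 and 506 CPM under Ctrl_DSS and 238 and 115 CPM under TG_WT (log2 fold change 1.51, SE 0.21, edgeR adjusted p = 0.000339). St3gal6 (chr16:58468125-58524243, - strand), a sialyltransferase, was at 340.3 and 287 CPM under Ctrl_DSS and 156 and 105 CPM under TG_WT (log2 fold change 1.13, SE 0.20, edgeR adjusted p = 0.00352). B3gnt6, the core 3 O-glycan synthase, rose from 42.2 and 22.9 CPM under TG_WT to 71.8 and 88.1 CPM under Ctrl_DSS (log2 fold change 1.12). For these 3 called genes both Ctrl_DSS sums lay above both TG_WT sums, which is no separate support for calls from these sums. Other members of the list, such as C1galt1 (-0.25), Gcnt3 (-0.52) and St6galnac1 (-0.51), were not called. Cmah, which makes the sialic acid Neu5Gc and was on no list, also rose (log2 fold change 1.41).

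Ceacam10 (chr7:24777206-24784657, + strand), a secreted member of the carcinoembryonic antigen family, was at 527 and 792 CPM under Ctrl_DSS and 223 and 257 CPM under TG_WT (log2 fold change 1.27, SE 0.19, edgeR adjusted p = 0.000806). It was found in 88.3% and 84.9% of Ctrl_DSS cells and 53.2% and 52.3% of TG_WT cells. Col8a1, a short-chain collagen, was at 141 and 122 CPM under Ctrl_DSS and 48.01 and 15.6 CPM under TG_WT (log2 fold change 1.95, SE 0.25, edgeR adjusted p = 0.000178). Scgb1b3, a secretoglobin, was at 244 and 422 CPM under Ctrl_DSS and 90.6 and 8.24 CPM under TG_WT (log2 fold change 2.77, SE 0.47, edgeR adjusted p = 0.00291); 9 UMIs made the last value, and near-identical secretoglobin copies could share reads. Bambi, a decoy receptor that dampens TGF-beta signalling, Plpp1, a lipid phosphatase, the tetraspanin Cd81, the survival gene Bcl2 and the surface protein Vsig2 rose by log2 values of 2.07, 1.32, 1.28, 1.22 and 1.37.

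Of 17 tested antimicrobial and acute-phase genes, 9 fell under Ctrl_DSS and 1, Wfdc2, rose, with a median log2 fold change of -1.87. Retnlb (chr16:48816856-48818892, + strand), a goblet cell product that kills bacteria, was at 376 and 503 CPM under Ctrl_DSS and 1123 and 2090.5 CPM under TG_WT (log2 fold change -1.97, SE 0.20, edgeR adjusted p = 1.77e-05). Ang4, an antibacterial ribonuclease, was at 98.1 and 16.1 CPM under Ctrl_DSS and 257 and 84.3 CPM under TG_WT (log2 fold change -1.92). Lypd8, which binds flagella, was at 1464 and 955 CPM under Ctrl_DSS and 2772 and 4398 CPM under TG_WT (log2 fold change -1.72). Other epithelial barcodes held more Lypd8, at 4102 and 5676 CPM under Ctrl_DSS and 5263 and 8493 CPM under TG_WT. For Retnlb and Lypd8 the groups did not overlap, while the Ang4 level of Ctrl_DSS in batch 1 exceeded that of TG_WT in batch 2. Duoxa2, the maturation factor of the hydrogen peroxide producing oxidase, fell by 2.37 on the log2 scale and its partner Duox2 fell by 0.98. The acute-phase gene Saa1 was at 222 and 25.97 CPM under Ctrl_DSS and 540.0 and 758 CPM under TG_WT. Other epithelial barcodes held more Saa1 too, at 394 and 429 CPM under Ctrl_DSS and 707 and 912 CPM under TG_WT. Slpi, a protease inhibitor, fell with its highest level in batch 2 of TG_WT (108 and 286 against 201 and 1581 CPM), while Reg3g, a lectin that kills bacteria, stood highest in batch 1 of TG_WT (54.9 and 39.1 against 506 and 50.4 CPM). Lcn2 was called on few UMIs, at 0.469 and 0.657 against 1.08 and 21.99 CPM. Of the 4 compared sums, Slpi and Lcn2 stood highest in the one with the highest neutrophil marker level, whose part in them was not tested.

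Interferon-response genes were called in part. Of 25 tested, 4 fell (against 1.66% of all genes), none rose, and the list's median was -0.46. Gbp2, a guanylate-binding protein of cell defence, was at 12.2 and 23.3 CPM under Ctrl_DSS and 29.6 and 308 CPM under TG_WT (log2 fold change -3.00, SE 0.42, edgeR adjusted p = 0.000404). The transcription factors Irf1 and Irf8 were at 38.02 and 79.6 against 57.4 and 156 CPM and at 23.00 and 47.01 against 47.6 and 78.8 CPM, Ctrl_DSS first (log2 fold changes -0.96 and -1.05). For Irf1 the groups overlapped across batches and for Irf8 they nearly met. Ifitm1 was at 2.82 and 3.94 against 3.25 and 44.9 CPM. In batch 2 of TG_WT, 47.02% of Gbp2 UMIs and 71.4% of Ifitm1 UMIs came from 1 cell. That sum also held the 439 CPM of neutrophil markers, whose part in these values was not tested. Isg15 (-0.46) and Ifit1 (-0.41) were not called.

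The promoters of 3 of the called interferon genes are shown because they held a match to a motif of the pathway. A script searched 300 bases, 250 before to 50 after the start, on both strands for TTCNNNGAA, the gamma-activated sequence bound by STAT proteins, and for the interferon-stimulated response element, written as GAAA, any 2 bases and GAAA. In the RefSeq promoter table (GRCm38.p6) the first was in 8.30% and the second in 3.44% of 32851 promoters. Of the 25 tested interferon genes, 21 had a promoter there, 8 with the first motif and 11 with the second. Matches are in capitals, at -59 for Gbp2, at -171 and -153 for Irf8 and at -90 for Irf1, as the position of the first base from the start. The Gbp2 window is chr3:142620413-142620712, that of Irf8 is chr8:120736108-120736407, and that of Irf1 is chr11:53769764-53770063, all on the + strand. The table holds a second window for Irf8 (chr8:120738389-120738688) and for Irf1 (chr11:53770223-53770522), and neither held a match, nor did the window of Ifitm1, the fourth called gene. A match describes letters and is no evidence of binding.
Gbp2: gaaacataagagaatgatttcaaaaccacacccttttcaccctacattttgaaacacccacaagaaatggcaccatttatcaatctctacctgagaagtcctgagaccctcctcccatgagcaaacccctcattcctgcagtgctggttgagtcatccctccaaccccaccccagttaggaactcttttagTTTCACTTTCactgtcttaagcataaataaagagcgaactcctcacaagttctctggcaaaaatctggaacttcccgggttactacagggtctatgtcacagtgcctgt
Irf8: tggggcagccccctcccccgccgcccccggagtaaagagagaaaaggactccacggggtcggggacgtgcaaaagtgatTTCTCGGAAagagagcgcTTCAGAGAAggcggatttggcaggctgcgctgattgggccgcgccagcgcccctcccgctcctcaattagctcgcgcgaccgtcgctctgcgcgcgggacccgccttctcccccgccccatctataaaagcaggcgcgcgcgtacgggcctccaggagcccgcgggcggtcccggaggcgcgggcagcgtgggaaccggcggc
Irf1: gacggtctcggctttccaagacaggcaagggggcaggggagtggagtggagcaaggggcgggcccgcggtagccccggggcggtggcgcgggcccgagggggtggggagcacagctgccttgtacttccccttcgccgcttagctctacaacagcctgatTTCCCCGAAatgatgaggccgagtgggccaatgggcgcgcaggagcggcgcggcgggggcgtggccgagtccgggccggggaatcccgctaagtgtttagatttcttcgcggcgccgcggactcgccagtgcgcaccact

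Ido1 had the largest fall among the genes with a mean of at least 20 CPM and the same sign in both batches, and a minority of goblet cells carried it. Ido1 (chr8:24584136-24597009, - strand), the enzyme that degrades tryptophan and an interferon-induced gene, was at 11.3 and 186 CPM under Ctrl_DSS and 209.7 and 2617 CPM under TG_WT (log2 fold change -4.16, SE 0.21, edgeR adjusted p = 4.02e-10). The ratio was alike in the batches, at -4.17 in batch 1 and -4.15 in batch 2, although batch 2 was higher than batch 1 under both tags. Ido1 was found in 4.26% and 20.6% of Ctrl_DSS cells and in 8.87% and 43.2% of TG_WT cells. The most loaded cell held between 31.5% and 62.5% of a sum's Ido1 UMIs. In the small TG_DSS sums Ido1 was at 1760.4 and 1617 CPM. The uncharacterised gene 2210407C18Rik had a similar pattern, at 17.8 and 128 CPM under Ctrl_DSS and 194 and 2604 CPM under TG_WT (log2 fold change -4.15).

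Of 24 inflammasome, interleukin-1 and gasdermin genes, 4 fell (against 1.66% of all genes) and none rose, with a median of -0.54. Gsdmc4, a member of the pore-forming gasdermin family, was at 25.3 and 7.23 CPM under Ctrl_DSS and 174 and 127 CPM under TG_WT (log2 fold change -3.47, SE 0.30, edgeR adjusted p = 1.70e-06). In batch 2 of TG_WT 97.1% of its UMIs came from 1 cell, and without that cell the level was 3.79 CPM, so the difference between tags there rested on that cell. In batch 1 it did not: the level without the highest cell was 154 CPM under TG_WT and 19.2 CPM under Ctrl_DSS. In other epithelial barcodes Gsdmc4 was at 327 and 309.8 CPM under Ctrl_DSS and 644 and 587 CPM under TG_WT, above its goblet levels, and in batch 1 colonocyte markers were also higher under TG_WT (8636 against 4552 CPM); their part in the Gsdmc4 difference was not tested. The call was lost with a tag threshold of 4 times the median (log2 fold change -1.03), with at least 20 Muc2 UMIs (-2.01), with equal numbers of cells (-2.75), in thinned cells (-1.49) and without the block (-3.39). Gsdmc2 fell too (log2 fold change -3.00); the Gsdmc genes are closely related copies, so how reads split among them is uncertain. Il18, an epithelial cytokine that the inflammasome activates, was at 58.7 and 25.97 CPM under Ctrl_DSS and 98.5 and 87.9 CPM under TG_WT (log2 fold change -1.34, SE 0.26, edgeR adjusted p = 0.00772). A single cell held 55.2% of the Il18 UMIs in batch 2 of TG_WT, and without that cell the level was 40.8 CPM. That lay below Ctrl_DSS in batch 1, at 55.4 CPM without its highest cell. Other epithelial barcodes held more Il18, at 226 and 157 CPM under Ctrl_DSS and 285 and 136 CPM under TG_WT. Casp1 (-0.54), Pycard (-0.51), Nlrp6 (-0.14) and Gsdmd (-0.59) were not called. None of the 23 tested genes of the p38 kinase pathway was called, among them Mapk14 (-0.14), Mapk13 (-0.73) and Mapkapk2 (-0.17). Among all genes 1.99% were called, a share at which a list of this size would hold few or none.

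Il1b and the chemokine Cxcl2 were high in batch 2 of TG_WT alone among the 4 compared sums. Il1b was at 7.98 and 5.92 CPM under Ctrl_DSS and 4.69 and 134 CPM under TG_WT. Cxcl2 was at 9.39 and 16.4 CPM under Ctrl_DSS and 9.39 and 397 CPM under TG_WT. Both passed the test, but their log2 ratios within batches were 0.77 in batch 1 and -4.80 in batch 2 for Il1b, and 0.03 in batch 1 and -4.91 in batch 2 for Cxcl2. A single cell held 45.9% of the Il1b UMIs and 62.4% of the Cxcl2 UMIs in that sum. A single cell there also held 94.1% of the UMIs of the chemokine Ccl4 and 62.5% of those of Tnfaip2. That sum also had the highest neutrophil marker level of the 4 compared, and the part of that in these genes was not tested. Of 22 chemokine, cytokine and NF-kB genes, 3 fell (Cxcl2, Tnfaip2 and Ccl9) and none rose. Ccl9 did not depend on a single cell, at 15.02 and 33.9 CPM under Ctrl_DSS and 36.5 and 68.7 CPM under TG_WT.

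Over the 63 called genes that the naming rule took, 60 had the same sign in both batches, which the rule required of 30 of them. Of the 33 without that condition 30 had the same sign. The calls were made from these same sums with batch as a block, which favours genes alike in both batches. The agreement is therefore no separate support. Of all 11292 genes tested, 3304 were lower and 3319 were higher under Ctrl_DSS in both batches. Of all 63, 57 kept the sign in both batches after the highest cell of each sum was left out. The 6 that did not were Ccl4, Gsdmc4, Tgm3, Il1b, Cxcl2 and Tnfaip2. A kept sign does not mean that many cells carried a gene. For 17 of the 63, a single cell held over 50% of the gene's UMIs in at least 1 compared sum. With each gene's highest cell left out of every sum, 327 of 10421 genes were called, 194 of them among the 225.

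Of 16 desmosome and adherens junction genes tested, 3 fell (against 1.66% of all genes), Jup among them, and none rose, with a median of -0.60. Dsp, the desmosomal plaque protein that binds keratin, was at 78.4 and 76.6 CPM under Ctrl_DSS and 145 and 134 CPM under TG_WT (log2 fold change -0.998, SE 0.20, edgeR adjusted p = 0.0104). Cdh17, a cadherin of the intestine, was at 92.5 and 102 CPM under Ctrl_DSS and 169 and 228 CPM under TG_WT (log2 fold change -1.17, SE 0.22, edgeR adjusted p = 0.00476). Neither pair of groups overlapped, which is no separate support for calls made from these sums. Cdh1 (-0.66), Dsg2 (-0.67) and Ctnnb1 (-0.56) were not called. Of 15 tight junction genes 2 fell, Cldn4 (-3.07) and F11r (-0.85). Of 5 tested keratins 2 fell: Krt20, a keratin of mature surface cells, was at 99.98 and 72.98 CPM under Ctrl_DSS and 254 and 213 CPM under TG_WT (log2 fold change -1.59, SE 0.21, edgeR adjusted p = 0.000275), and Krt19 had a log2 fold change of -1.56. Krt8, used by the gate, was at 1111 and 893 against 2023 and 2450.5 CPM, with no test. Colonocyte markers, Krt20 among them, were higher under TG_WT in batch 1 (8636 against 4552 CPM) and lower there in batch 2 (1646 against 2115 CPM). In goblet cells low in colonocyte markers 128 genes were called, 88 of them among the 225, with log2 fold changes of -3.56 for Clca1 and -2.70 for Jup. Of the 63 called genes that the naming rule took, 53 were tested in those cells, 36 were called and 17 were not, among them Dsp, Il18 (-0.16) and Car2 (-0.21). The other 10 did not pass the expression filter there, among them Gsdmc4 and Tgm3, while Reg4 was called (-1.69, edgeR adjusted p = 0.0239).

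Of 15 tested repair and fetal-like genes 6 fell (against 1.66% of all genes), none rose, and the median was -1.02. Ly6a, a surface protein of regenerating epithelium, was at 114 and 261 CPM under Ctrl_DSS and 275 and 1222 CPM under TG_WT (log2 fold change -1.92, SE 0.25, edgeR adjusted p = 0.000198). Batch 2 of TG_WT, the sum with 439 CPM of neutrophil markers, stood apart, and the other 3 sums lay between 114 and 275 CPM; the part of neutrophil RNA in this was not tested. Hbegf, a growth factor for epithelial repair, was at 47.4 and 46.7 CPM under Ctrl_DSS and 102 and 104 CPM under TG_WT (log2 fold change -1.28, SE 0.21, edgeR adjusted p = 0.002). Plaur, the urokinase receptor, fell by 1.09 on the log2 scale. Areg, another growth factor, fell by 1.51, Clu fell by 2.01 and Ly6c1 fell by 3.55, the last with levels of at most 32.1 CPM. A single cell held 88.6% of the Ly6c1 UMIs in batch 2 of TG_WT, and without that cell the level was 3.79 CPM.

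**Figure D4:**
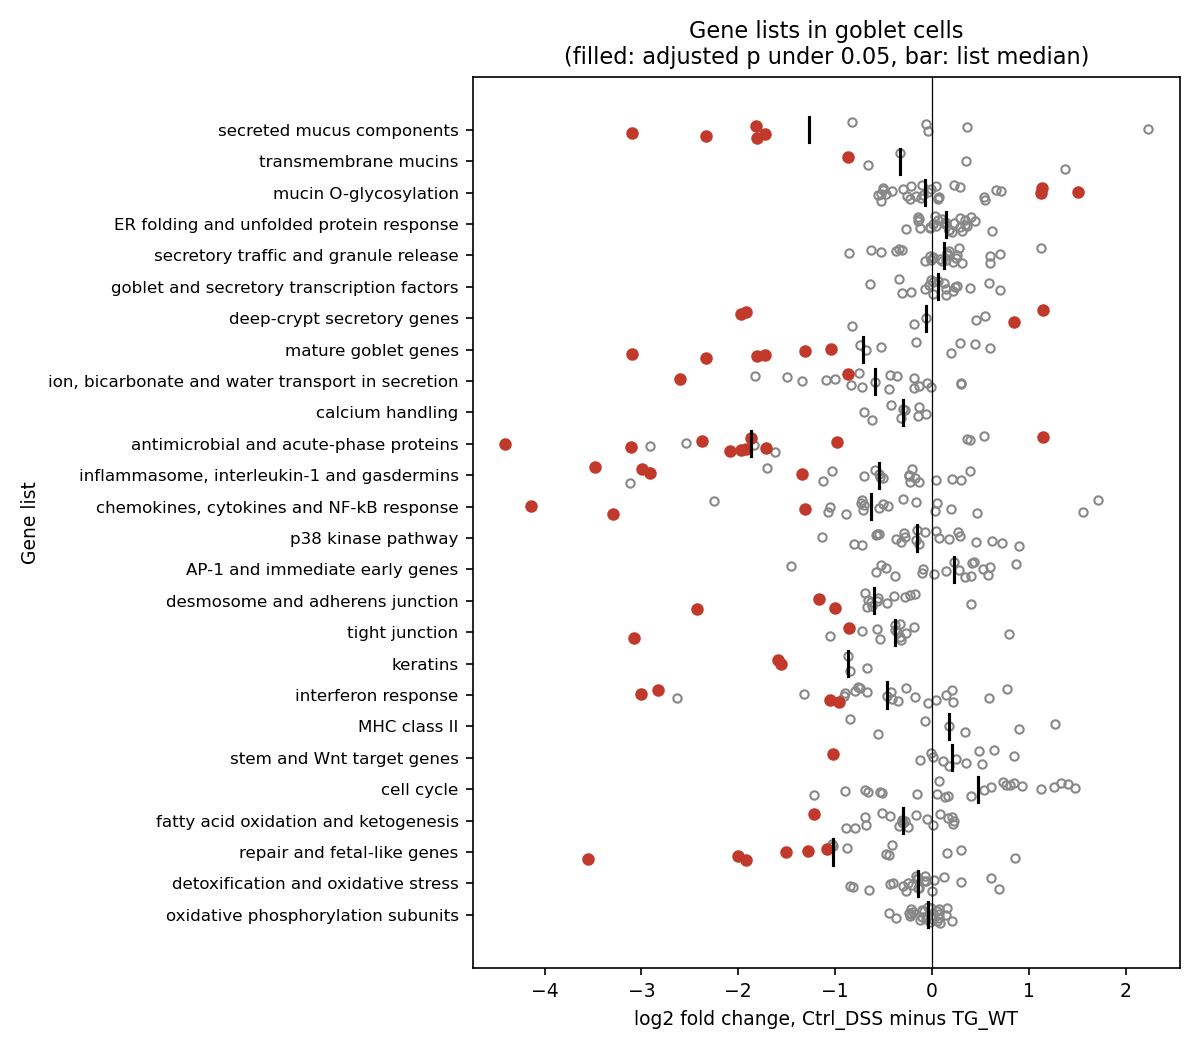
Log2 fold change of each tested member of 26 gene lists in goblet cells, Ctrl_DSS minus TG_WT (horizontal axis); filled red points passed an adjusted p of 0.05, open points did not, and black bars are list medians. Called members lie left of 0 for secreted mucus, antimicrobial, keratin and repair lists, apart from Wfdc2, and right of 0 for O-glycosylation.

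The lists of secretion genes held no calls, against 1.99% called among all genes, a share at which lists of this size would hold few or none. None of 28 tested genes of ER folding and the unfolded protein response passed (median 0.14), with Xbp1 at 0.20, Hspa5 at -0.12 and Pdia3 at -0.02. None of 26 genes of secretory traffic passed (median 0.12), nor of 19 goblet and secretory transcription factors (median 0.07), with Atoh1 at 0.14, Spdef at 0.01 and Klf4 at -0.31. None of 24 cell cycle genes was called (median 0.47), although the licensing factors Mcm2 (1.48) and Mcm3 (1.26) had positive estimates. None of 26 oxidative phosphorylation subunits (median -0.04), 23 detoxification genes (median -0.14), 19 immediate early genes (median 0.23) and 7 MHC class II genes (median 0.17) was called. Of 21 ion and water transport genes, 2 fell: the proton pump Atp12a (-2.60) and the carbonic anhydrase Car2 (-0.87). Atp12a rested on few UMIs, 7 and 12 under Ctrl_DSS and 93 and 12 under TG_WT. A single cell held 52.7% of its UMIs in batch 1 of TG_WT and 91.7% in batch 2 of Ctrl_DSS. Of 21 genes of fatty acid oxidation 1 fell, Slc25a20, the mitochondrial carnitine carrier (-1.22), and of 12 stem and Wnt genes 1 fell, Prom1 (-1.03). Of 5 transmembrane mucins 1 fell, Muc13, at 656 and 603 CPM under Ctrl_DSS and 887 and 1204 CPM under TG_WT. None of 9 calcium-handling genes was called, with the calcium binder S100g at -0.62 and the exchanger Slc8a1 at -0.32.

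The tag difference was set against that in other epithelial barcodes of the same tags (101 and 130 labelled Ctrl_DSS, 287 and 211 labelled TG_WT). In that class 21 of 13089 genes were called (0.16%), all lower under Ctrl_DSS, Jup among them (log2 fold change -2.88, edgeR adjusted p = 0.0403). The difference of the differences passed for 0 of 13089 genes in edgeR (0%), with 411 at an unadjusted p under 0.05, so no gene was shown to differ more between the tags in goblet cells than in the other class. For Clca1 the goblet change minus the other change was -1.20 (SE 0.45), for Fcgbp -2.09 (SE 0.61), for Retnlb -1.50 (SE 0.51) and for Jup 0.48 (SE 0.65). The first 3 lie on the side of a larger fall in goblet cells without passing the adjustment. In the other class these 3 genes had few UMIs. Under the compared tags Clca1 was there at 3.19 to 7.46 CPM, Fcgbp at 3.34 to 8.94 CPM and Retnlb at 2.39 to 3.11 CPM. Their change in that class is thus a ratio of a few CPM, and the part of free RNA in it was not tested.

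The tag threshold chose the members, and cells on either side of it are given without a test. Among Ctrl_DSS goblet cells, the 116 just below it (ratio 2 to 2.5) had 1764 CPM of Clca1 and 7.32 CPM of Jup, and the 73 just above it (2.5 to 3) had 1576 and 12.0 CPM. On both sides Clca1 exceeded the whole Ctrl_DSS sums (789.5 and 706 CPM). Cells with no single tag had 1559 and 2590 CPM of Clca1. Tff3, at 2400 CPM just below and 2117 CPM just above, also exceeded its whole Ctrl_DSS sums (1350 and 1037 CPM). Jup on both sides stayed below the 21.7 and 18.7 CPM of cells with no single tag. The reason was not tested. Among TG_WT goblet cells, the 24 just below had 1952 CPM of Clca1 and 39.5 CPM of Jup, and the 16 just above had 4518 and 66.8 CPM. At the Muc2 threshold there were few: 9 Ctrl_DSS and 12 TG_WT cells had 3 to 4 UMIs, and 1 and 6 had 5 to 6. With a threshold of 4 times the median, 27 and 51 Ctrl_DSS cells remained and the log2 fold change of Clca1 was -3.73.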

How the data were processed

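Cells of mouse colon were measured in 2 batches by 10x 3' sequencing with 4 hashtags, sorted for viability per the labels' protocols. The authors deposited raw UMI counts of genes and hashtags for all barcodes, made with Cell Ranger 7.0.0 on mm10 per the submitters' processing notes, 133919905 gene UMIs in batch 1 and 95408149 in batch 2. Free RNA is shared by all tags of a batch and was not removed. The filters kept 6914 and 6244 barcodes. Of these, 13 barcodes occur in both batches. Tags were called as the report states, and cells over 2 or more thresholds were left out as doublets; no other caller was used.

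Counts were summed per tag and batch for goblet cells, and sums of at least 10 cells were tested with edgeR 4.0.16 in R 4.3.3: TMM scaling, its expression filter by tag, tag and batch as terms, quasi-likelihood test, Benjamini-Hochberg adjustment over all genes at 0.05. The genes of the gate were not tested. The procedure was tested on simulated data. DESeq2 1.42.0 was an alternative. Batch pairs the samples because its 4 tags were pooled as 1 library per the labels; the batch deviations of Ctrl_DSS and TG_WT correlated at r = 0.33 over 11292 genes, as a description. Within-batch ratios used a prior count of 0.5. Coordinates are from GENCODE M21 (mm10), where 32158 of 32285 gene identifiers (99.6%) were found.

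The text names up to 15 called genes per direction with the largest fold change, a mean of at least 20 CPM and the same sign in both batches, all tested secreted mucus genes, up to 4 called members of each other list by smallest p or its 2 most abundant members, and Jup, S100g and Slc8a1. Other list members given only by their log2 value, and Slfn2, were chosen after their values were seen. The members, gene lists and tests were chosen with earlier results of these data known.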

Additional observations from a re-analysis of the deposited data

How the results depend on the processing

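The count of 225 called genes depended on the fit, the gate, the tag rule and the cells used. With the replicate block left out edgeR called 0 genes (724 at an unadjusted p under 0.05), also with only the 2 compared tags (0, with 682). Those tags with the block gave 150, which is the same fit as the one without TG_DSS in batch 2. The count of 225 fell to 23 with DESeq2 size factors, 22 with DESeq2 and 93 with at least 10 counts in each sum. It fell to 98 with a tag threshold of 4 times the median and 68 with a tag at least 3 times the next. It fell to 47 with at least 20 Muc2 UMIs and 88 with at most 10% mitochondrial UMIs. It fell to 16 with equal numbers of cells and 69 with cells thinned to 1000 UMIs. It rose to 457 with no filter and to 458 without the 5% of cells with most UMIs. Alternatives chosen after seeing the data gave 128 in cells low in colonocyte markers, 1 (Gsdmc4) with sums of at least 5 cells, and 5 with the spread shared with other epithelial barcodes. The cause of these changes was not tested. Leaving out single sums gave between 0 and 150 genes: 150 without TG_DSS in batch 2, and in the shared-spread fit 21 without Ctrl_DSS in batch 1, 0 without Ctrl_DSS in batch 2 (386 at an unadjusted p under 0.05), 11 without TG_WT in batch 1 and 15 without TG_WT in batch 2. In the fit of the report leaving out a compared sum leaves no residual degree of freedom. The difference between classes gave 0 genes with no block or a block per class. It moved for single genes when 1 goblet sum was left out. For Saa1 it was -4.00 on the log2 scale without Ctrl_DSS in batch 1, against -1.52 with all sums. For Lgals2 it was -5.41 without TG_WT in batch 1, against -4.28 with all sums.

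Of the 63 called named genes, 62 kept their sign in each alternative run; Car2 reversed with cells thinned to 1000 UMIs (log2 fold change 0.20), and Reg4, not called, reversed with a tag at least 3 times the next (1.28). Clca1 stayed called in 19 of 24 alternatives, the highest count among the named genes. Zg16 was called in 12 of 24, Dsp in 8, Irf1 in 6 and Muc13 in 5. Over the 90 named genes and the alternatives that tested them, a call was lost 811 times, gained 11 times and reversed 2 times. It was unchanged 1226 times, which includes genes not called in either fit. With a tag threshold of 4 times the median 27 and 51 Ctrl_DSS goblet cells remained. Unthinned shares were 39.4%, 23.0%, 59.7% and 68.2% for Clca1 (Ctrl_DSS, then TG_WT, batches 1 and 2), 60.6%, 54.0%, 73.4% and 79.5% for Fcgbp, 46.8%, 20.6%, 17.7% and 18.2% for Reg4, and 60.6%, 29.4%, 53.2% and 31.8% for Mptx1. Goblet cells without a UMI of myeloid markers were not fitted, because 8 cells of TG_WT remained in batch 2. Depth limits genes of a few UMIs, such as Lcn2 and Ly6c1.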
